A study of Rattus norvegicus with 12 samples.

Results

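A 2 Mb stretch of rat chromosome 18, from 29500001 to 31500000 in the coordinates of the peak files, held the densest cluster of N6-methyladenosine (m6A) regions in these retinal peak lists. Each list gives the stretches of RNA that an anti-m6A antibody enriched in 1 retina. The members were chosen by measured values: the stretch was selected on the number of regions called per Mb over all lists, without regard to group. Density and spacing inside it are therefore description. Regions of the 6 lists that shared at least 1 base were merged, which gave 112 union regions in the stretch, out of 449 on chromosome 18 (24.9%) and 12467 in the series (0.898%). The Mb from 30000001 to 31000000 held 93 of them, and the next densest Mb of the genome, on chromosome 7 from 12000001 to 13000000, held 48.

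The ends of the stretch cut through no region. The nearest union region before it lay from 29493547 to 29494420, was present in all 6 lists and ended 12.7 kb before the first member, which runs from 29507072 to 29507472 and was also present in all 6. On the other side the last member, from 31456612 to 31456978, and the next region outside, from 31811018 to 31812360, were 354 kb apart, and both were present in all 6 lists. The 2 Mb before the stretch held 27 union regions and the 2 Mb after it held 5.

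The retinas came from male Sprague-Dawley rats. The control group, labelled WT, was 3 animals injected with citrate buffer on 5 consecutive days, weighing 103.4 to 110.5 g. The diabetic group was 3 animals that fasted for 12 h and then received 60 mg/kg of streptozotocin on each of 5 days. They weighed 100.4 to 104 g, and animals with fasting glucose over 16.7 mmol/L counted as diabetic. Streptozotocin kills pancreatic beta cells, so the model is a chemically induced insulin deficiency, and age and the time from injection to dissection are not given in the sources used here. The labels give the tissue as retina with no sorting of cells, and in such bulk samples fewer cells of a type and less RNA per cell cannot be told apart. The retinal identity of the samples was not checked against marker genes, since the lists carry positions and no gene names.

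m6A is the most common internal mark of mRNA. It is written by a methyltransferase complex around METTL3 and METTL14, removed by FTO and ALKBH5, and read by YTH-domain proteins, which steer the splicing, export, translation and decay of the marked transcript. The mark is known to gather near stop codons and in long exons, and in neural tissue it takes part in differentiation and in the local use of mRNA. In an m6A immunoprecipitation a single modified site yields a peak about as wide as the RNA fragments, here cut to about 100 nt, and neighbouring sites merge into a wider region with several summits.

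The 6 lists rested on unequal depth. The smaller of the immunoprecipitation and input library of an animal, to which the caller scaled the other, held 8175227 to 9030946 reads in the controls and 8729247, 10186285 and 12354616 in diabetic replicates 1, 2 and 3. Pileup, the number of fragments stacked over the summit, is given here per 1000000 reads of that smaller library (RPM). The genome-wide background floor then lay between 1.92 and 2.03 RPM in every library. The weakest members had fold enrichments of 2.00 to 2.30 in the 6 lists, and no weaker enrichment was called there. The part of depth in these minima was not tested.

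The cluster fell into separate blocks with long stretches between them that held no region. Parting the 112 union regions at gaps of at least 100 kb, a limit chosen after the values were seen, gave 6 blocks. The first block ran from 29507072 to 29643411 with 7 union regions. The second, from 29987760 to 30213495, held 18. The third, from 30377095 to 30594735, held 30, and the fourth, from 30774918 to 30956914, held 49. A lone region from 31073344 to 31073491, found in diabetic replicate 2 only, made up the fifth, and the sixth, from 31329697 to 31456978, held 7. The empty stretches between them were 344348, 163599, 180182, 116429 and 256205 bases long.

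**Figure D1:**
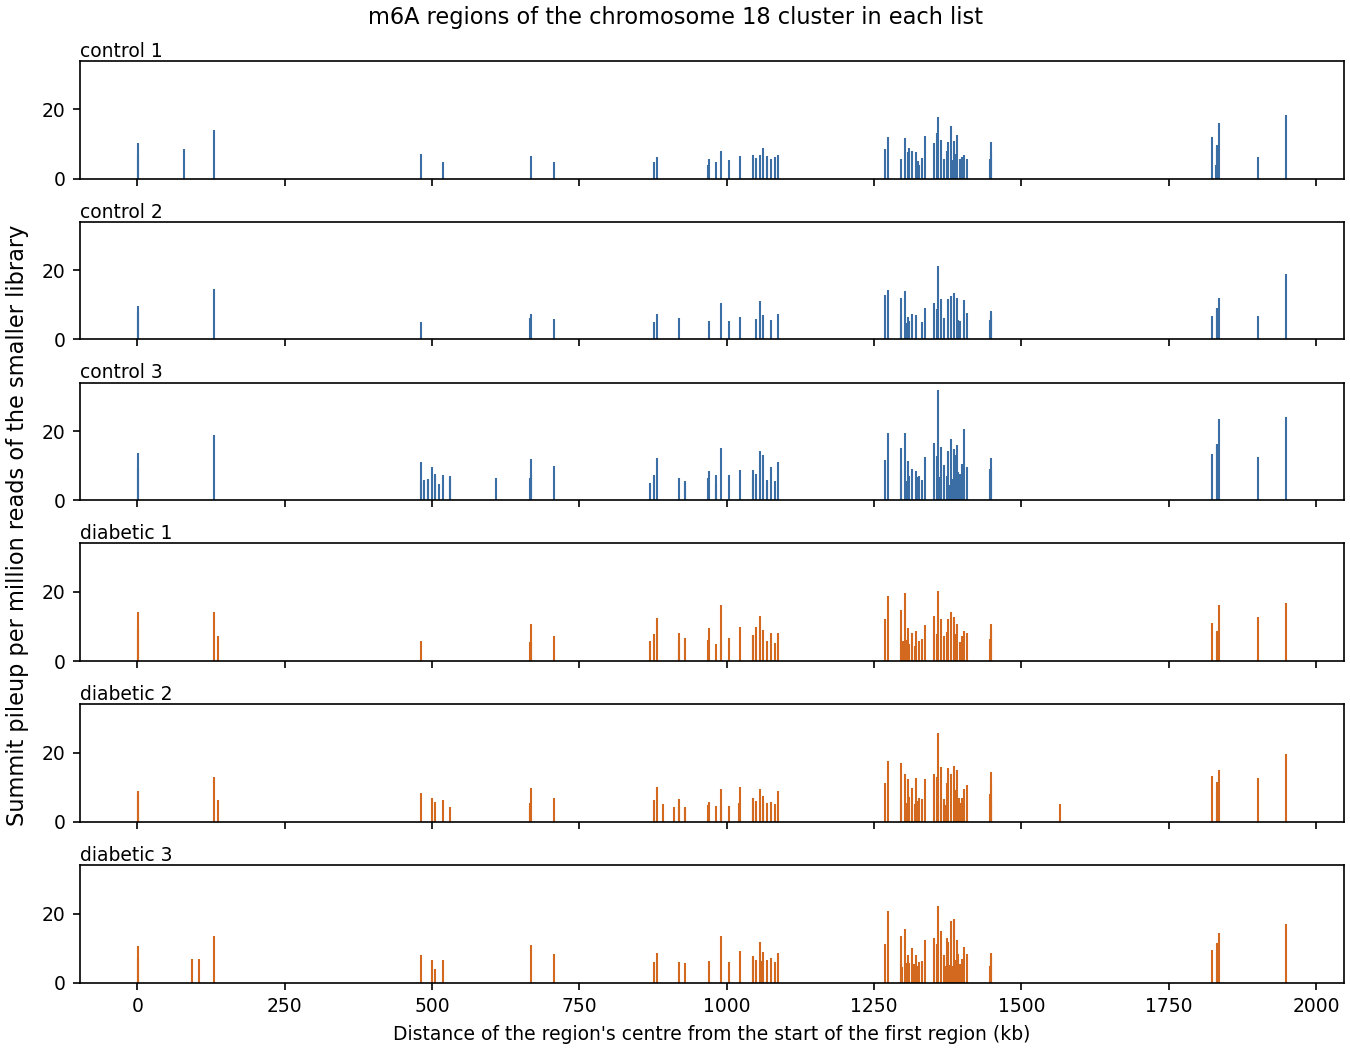
Each panel is 1 peak list. A vertical line stands at the centre of each union region with a peak in that list, by distance from the start of the first region (kb), and its height is the summit pileup (RPM). The fourth block, with 49 of the 112 union regions, forms the dense group, and control replicate 3 alone has many lines in the second block.

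Regions of the cluster mostly followed one another closely, with the 5 empty stretches between blocks counted among the gaps. The median gap between neighbouring union regions was 3243 bases (quartiles 564 and 7622, 111 gaps), and 87 gaps (78.4%) were under 10 kb, beside a median of 34822 bases and a share of 35.0% over all neighbouring union regions of the chromosomes. The narrowest gap, 80 bases, followed the region from 30173698 to 30173921, which was found in diabetic replicate 2 only. Next came a gap of 83 bases after the region from 30436210 to 30436445, present in 4 lists, and one of 118 bases after the region from 30567961 to 30568215, present in all 6. Gaps of 138 bases, after the first member, and 170 bases, after the region from 31337707 to 31337849 in control replicate 1, completed the 5 narrowest. In all, 25 gaps were under 500 bases, close to the size of a single region.

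The fourth block had the tightest and most even spacing. It spanned 182 kb, of which union regions covered 12.2%, and 25 of its 49 union regions were present in all 6 lists. Centres of neighbouring regions present in all 6 lists lay a median of 5.34 kb apart (quartiles 4.91 and 6.23 kb, 24 distances), and 15 of the 24 distances were between 4 and 7 kb. The distances ranged from 0.820 to 38.8 kb, with 4 under 2 kb and 4 over 10 kb. The band of 4 to 7 kb was not planned in advance. In the third block, 218 kb long, the same distances had a median of 14.1 kb (quartiles 8.19 and 20.3 kb, 10 distances), and 2 of 10 were between 4 and 7 kb. Regions covered 4.60% of the third block, and 11 of its 30 union regions were in all 6 lists. The second block had 3 of 18 in all 6 lists and a cover of 1.94%, while the sixth had 5 of 7.

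Widths differed with the number of lists that held a region. Over the 112 union regions the width ran from 121 to 1436 bases with a median of 272. The 47 present in all 6 lists had a median of 479 bases, and the 28 found in a single list had a median of 136, near the extension length of 118 to 125 bases the caller gave each read. Of the 24 union regions under 150 bases, 21 came from a single list and none was in all 6. Of the 17 over 700 bases, 15 were in all 6. A union region can grow wider with every list that adds to it, so width and presence are not independent. Over the series the medians were 437 bases for union regions in all 6 lists and 141 for those in a single list.

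The widest regions all lay in the fourth block. They ran from 30809321 to 30810756 (1436 bases), 30865536 to 30866573 (1038 bases), 30896942 to 30897973 (1032 bases), 30842318 to 30843279 (962 bases) and 30876071 to 30877024 (954 bases). Each was present in all 6 lists. The first of them had the most summits, 26 summed over the lists, followed by those of 962, 1032 and 954 bases with 23, 21 and 20. A region of the third block, from 30593885 to 30594735, came next with 17 summits, as did 2 others of the fourth block that tied with it.

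Summit positions recurred between animals. In the widest region, the strongest summit lay 1271, 1272 and 1281 bases from the region's start in control replicates 1, 2 and 3 and 1277, 1285 and 1272 bases from it in diabetic replicates 1, 2 and 3. That summit therefore stayed within 14 bases over 6 retinas. Control replicates 1, 2 and 3 had 11.7, 14.0 and 19.5 RPM there, and the diabetic replicates had 19.7, 14.0 and 15.5 RPM. The groups overlap. A summit between 832 and 842 bases was called in 5 of the lists, and control replicate 1 had one at 882 bases. A summit 326 to 344 bases from the start was called in the 3 diabetic lists and in no control list. Every list also had a summit nearby, at 216 to 231 bases in the controls and 219 to 239 bases in the diabetic lists. The 3 diabetic positions at 326 to 344 bases lie inside the region called in every list, so it is a summit and not a region that the control lists lack. It was singled out after its positions were seen, and how often summits part the groups in other regions was not counted.

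Over the 47 regions present in all 6 lists, the strongest summit moved by a median of 39 bases between its outermost positions (quartiles 24.5 and 110). It stayed within 50 bases in 30 of the 47 and within 20 in 11. In 7 regions it moved by over 200 bases, up to 509. One summit in every list was called in 18 of the 47, and several in every list in 12.

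Presence in the lists was less complete than over the series. In all 6 lists, 47 of the 112 union regions had a peak (42.0%), where 56.9% of all union regions did. Single-list regions numbered 28 (25.0%), beside 14.8% over the series, and 78 (69.6%) had a peak in at least 1 list of each group, beside 80.2%. These shares are descriptions of merged lists, with no test. Keeping regions enriched 3-fold or more left 80 union regions, 33 of them in all lists.

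The lists of control replicate 3 and diabetic replicate 2 supplied most of the regions seen once. Control replicate 3 alone had 12 of the 112 (10.7%), where 3.31% of all union regions were found in that list only. Diabetic replicate 2 alone had 8 (7.14%), where 3.54% of all union regions were found in that list only. Diabetic replicate 3 had 5 (4.46%, beside 2.12% over the series) and diabetic replicate 1 had 1 (0.893%, beside 1.27%). Control replicate 1 had 2 (1.79%, beside 1.58%). Control replicate 2 had none, beside 3.01% over the series. A count of 0 allows a share of up to 2.68% if neighbouring regions are taken as independent. Of the 53 union regions of control replicate 2, all were also in control replicate 3 and in diabetic replicate 2, the longest lists with 10160 and 10552 regions. Among the 11 union regions missing from 1 list, control replicate 2 was the missing list in 7, control replicate 1 in 3 and diabetic replicate 3 in 1. These were 6.25, 2.68 and 0.893% of the 112, beside 2.36, 3.06 and 0.377% of all union regions for the same lists.

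The second block held 8 of the 12 regions found in control replicate 3 only. It had a peak of control replicate 3 in 17 of 18 union regions, while control replicates 1 and 2 had 4 each and diabetic replicates 1, 2 and 3 had 5, 9 and 6. Without that list the block kept 10 union regions, the fourth block kept 46 of 49 and the third kept 29 of 30. The 8 were weak, at percentiles of 2.88 to 27.0 of fold enrichment within that list. They included the region from 29987760 to 29987895 at 4.98 RPM and the strongest of them, from 30011277 to 30011454, at 7.53 RPM. These 8 rest on 1 of the 3 control animals. Control replicate 3 also had the highest pileup in 48.7% of the regions shared by all lists of the series, and the part of that in this block was not tested.

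**Figure D2:**
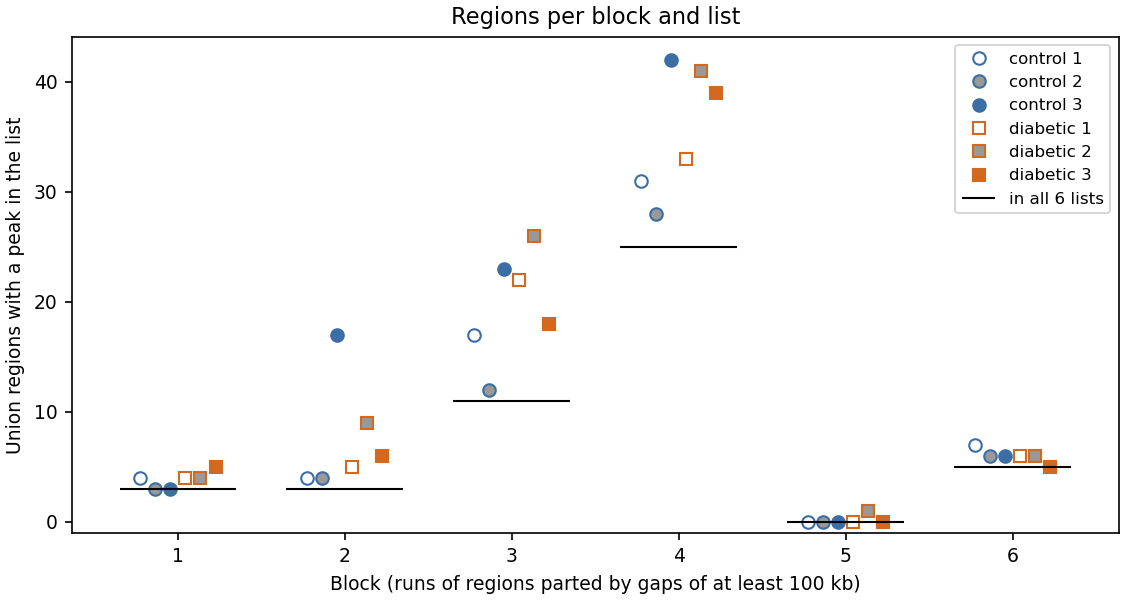
Points give the number of union regions with a peak in each list (y axis) in the 6 blocks (x axis), circles for controls and squares for diabetic animals, with open, grey and filled symbols for replicates 1, 2 and 3. Black lines mark the number present in all 6 lists. In the second block control replicate 3 stands at 17 and every other list at 9 or fewer.

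A region separating the groups completely was found once. The region from 30826410 to 30826623, in the fourth block, had a peak in all 3 diabetic lists and in no control list. Diabetic-only regions were thus 1 of 112 (0.893%), where 1.10% of all union regions were diabetic-only. Its pileup was 4.48, 5.06 and 5.36 RPM in diabetic replicates 1, 2 and 3, with fold enrichments of 2.19, 2.56 and 2.66, near the weakest calls of these lists. The region is named for this separation, and no test is given. With a −log10 q of at least 5 or with lists of equal length no region was diabetic-only, and among regions enriched 3-fold or more there were 2. There were 3 without control replicate 3, 2 without diabetic replicate 1 and 4 without diabetic replicate 3. Control-only regions numbered 0 of 112, which allows a share of up to 2.68%, where 0.201% of all union regions were control-only.

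Regions with peaks in lists of 1 group only were more frequent, but most of them came from a single list. A peak in some diabetic but no control list was found in 19 union regions (17.0%), and a peak in some control but no diabetic list in 15 (13.4%), beside 10.3% and 9.53% over the series. These counts take in the 28 single-list regions and the diabetic-only region. The region from 30436210 to 30436445 is an example of a region in 3 diabetic lists and 1 control list: its pileup was 5.65 RPM in control replicate 3 and 6.80, 4.37 and 5.76 in diabetic replicates 1, 2 and 3. The control value lay inside the diabetic range. The region from 30551464 to 30551912 had the same pattern of lists. There control replicate 3, at 6.31 RPM, lay below diabetic replicates 1, 2 and 3 at 7.42, 6.55 and 7.34 RPM.

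The strongest members ranked above the middle of every list. Members present in all 6 lists were ranked by the lowest of their 6 within-list percentiles of fold enrichment. The region from 30865536 to 30866573 led with a lowest percentile of 76.7. Its pileup was 17.7, 21.1 and 31.9 RPM in control replicates 1, 2 and 3 and 20.2, 25.8 and 22.3 in diabetic replicates 1, 2 and 3. Control replicate 3 was highest and control replicate 1 lowest, so the control range enclosed the diabetic one. On the log2 scale the diabetic mean minus the control mean was -0.01 ± 0.21 (SE, limma, n = 3 each, Benjamini-Hochberg adjusted p = 0.992).

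Next in rank came regions at either edge of the cluster. The region from 29636982 to 29637274, in the first block, had 14.1, 14.6 and 18.9 RPM in the controls against 14.2, 13.0 and 13.6 RPM in the diabetic replicates. The last member, from 31456612 to 31456978, had 18.5, 18.8 and 24.2 RPM in the controls against 16.8, 19.7 and 16.9 RPM in the diabetic replicates. Both had 1 summit in every list and overlapping groups, with control replicate 3 the highest of the 6 libraries. In diabetic replicate 3 the local background of the last member was 1.36 times the floor.

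The other 7 of the 10 leading regions lay in the fourth block, apart from the region from 31342932 to 31343493 in the sixth, where controls had 16.2, 12.0 and 23.6 RPM and diabetic replicates 16.2, 15.0 and 14.4 RPM. They ran from 30887200 to 30888141, 30779735 to 30780638, 30809321 to 30810756, 30871165 to 30871766, 30892525 to 30893046 and 30881623 to 30882243. Lowest percentiles of the 10 were 53.1 to 76.7. Controls had 11.1, 11.6 and 15.4 RPM in the region from 30871165 to 30871766 and diabetic replicates 12.2, 16.0 and 15.1 RPM, which overlap. In each of the 10 the highest library was control replicate 3 or a diabetic replicate, and in 8 of them the lowest was control replicate 1 or 2.

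**Figure D3:**
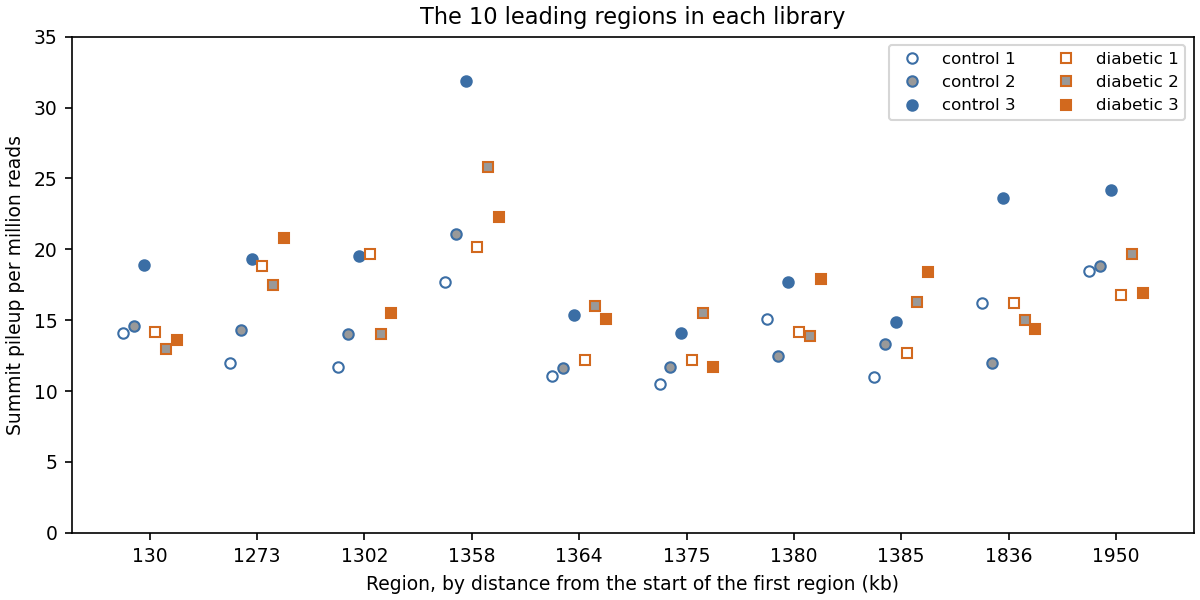
Summit pileup (RPM, y axis) of the 10 leading regions in each library. Regions are ordered by distance from the start of the first region (kb), with circles for controls, squares for diabetic animals, and open, grey and filled symbols for replicates 1, 2 and 3. The highest value is 31.9 RPM, in control replicate 3, and the groups overlap in every region shown.

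No difference in the number of cluster regions between the groups exceeded the spread of the animals. Control replicates 1, 2 and 3 had 68, 57 and 91 regions, and diabetic replicates had 73, 94 and 74. The lowest list was a control and the highest a diabetic animal, but control replicate 3 lay above 2 diabetic lists. Means were 72.0 ± 17.3 and 80.3 ± 11.8 (SD, n = 3 each). They differed by 8.33 regions, less than either SD (exact two-sided permutation p = 0.5, adjusted p = 0.625 over 5 contrasts, smallest possible p 0.1). Without control replicate 3 the difference was 17.8, without control replicate 2 it was 0.833, without diabetic replicate 2 it was 1.50, and with lists of equal length it was 1.00.

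Relative to list length the cluster was again fullest in the longest lists of both groups. Per 1000 regions of the list, the cluster held 7.49, 6.26 and 8.96 in control replicates 1, 2 and 3 and 7.50, 8.91 and 7.40 in diabetic replicates 1, 2 and 3. The highest 2 values belong to control replicate 3 and diabetic replicate 2, 1 of each group. Group means were 7.57 ± 1.35 and 7.94 ± 0.842 (SD, n = 3 each; exact permutation p = 0.9, adjusted p = 0.9). The difference of 0.369 turned to -0.285 without control replicate 2 and to -0.117 without diabetic replicate 2. It was 0.110 with lists of equal length, 0.628 with a −log10 q of 5 or more, 0.697 among regions enriched 3-fold or more, 0.636 without diabetic replicate 3, 0.586 without diabetic replicate 1 and 1.06 without control replicate 3.

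Covered length and median width also overlapped between the groups. Regions covered 20.5, 18.9 and 34.5 kb in control replicates 1, 2 and 3 and 27.2, 32.4 and 28.3 kb in diabetic replicates, with mean widths of 301, 331 and 380 bases and 372, 344 and 382 bases. The difference of the means was 4.63 kb (exact permutation p = 0.4, adjusted p = 0.625, n = 3 each), between 1.74 kb without control replicate 2 and 9.59 kb without control replicate 3. It was 2.56 kb without control replicate 1 and 3.08 kb without diabetic replicate 2, and 2.95 kb with lists of equal length. Median widths were 242, 268 and 292 bases in controls and 298, 270 and 290 in diabetic animals, a difference of 18.8 bases (exact permutation p = 0.3, adjusted p = 0.625, n = 3 each). That difference was 6.33 bases without control replicate 1, 31.1 without control replicate 3, 32.2 among regions enriched 3-fold or more, 38.2 for lists of equal length and 29.5 in the densest Mb.

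The share of regions with several summits was higher in every diabetic list than in every control list. It was 25.0, 28.1 and 33.0% in control replicates 1, 2 and 3 and 35.6, 36.2 and 37.8% in diabetic replicates 1, 2 and 3. The means were 28.7 ± 4.02% and 36.5 ± 1.16% (SD, n = 3 each), a difference of 7.86 percentage points that is larger than either SD. The exact two-sided permutation p was 0.1, the smallest that 3 against 3 allow, and 0.5 after adjustment over the 5 contrasts, so the difference did not pass. Wilson 95% intervals, which cover counting error only, were 16.2 to 36.4% in control replicate 1 and 27.6 to 49.2% in diabetic replicate 3, and they overlap. The smaller libraries of diabetic replicates 2 and 3 were the deepest of the 6, and the part of depth in this share was not tested.

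Outside the cluster the control lists had shares of 33.2, 30.4 and 33.6% and the diabetic lists 32.1, 32.8 and 32.2%, so those groups overlap. The cluster's share minus that of the rest of its list was -8.25, -2.36 and -0.681 points for the controls and 3.50, 3.33 and 5.62 points for the diabetic animals. This comparison, chosen after the values were seen, gave a difference between groups of 7.92 points (exact permutation p = 0.1, adjusted p = 0.5 over 5 measures, n = 3 each).

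**Figure D4:**
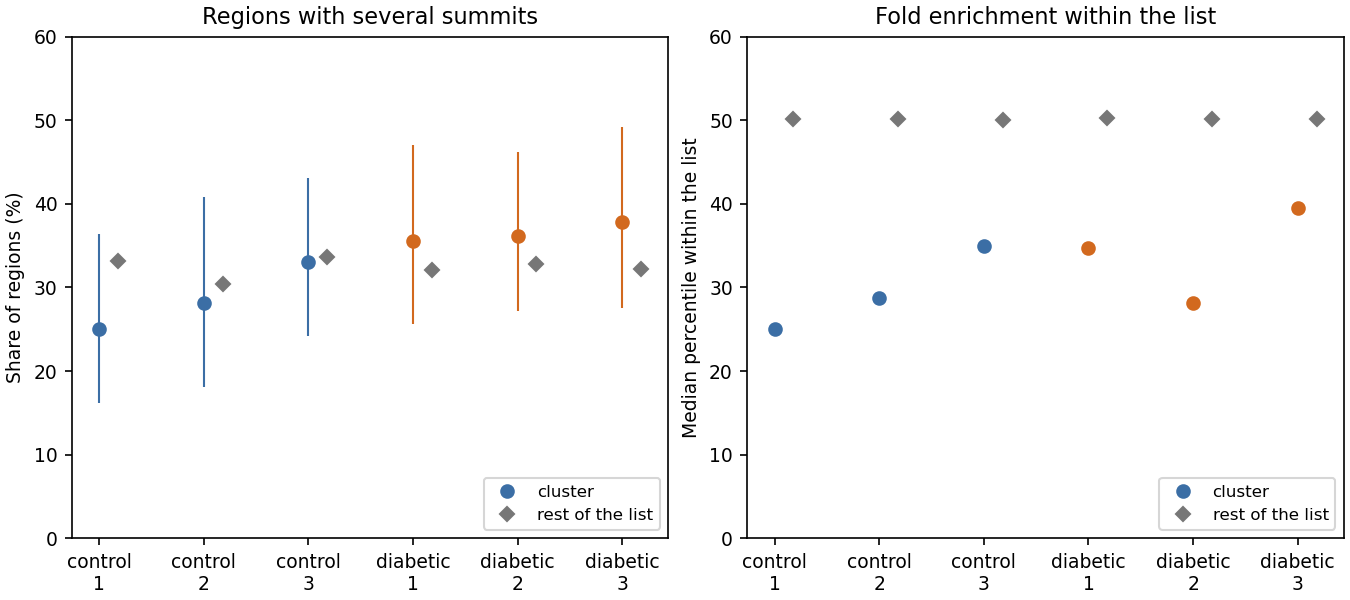
Left, the share of regions with several summits (%) in the cluster (coloured circles, blue for controls and orange for diabetic animals, with Wilson 95% intervals) and in the rest of each list (grey diamonds). Right, the median percentile of fold enrichment within the list for the same sets. Diabetic circles lie above the diamonds on the left and control circles below them, and all 6 circles lie below the diamonds on the right.

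Pileup of the regions present in all 6 lists was compared over all 7098 such regions of the series with limma, and 47 of these lie in the cluster. The other 65 members lack a peak in at least 1 list and were not fitted. Median pileup of the 47 was 7.85, 7.88 and 12.3 RPM in control replicates 1, 2 and 3 and 9.97, 10.1 and 9.55 in diabetic replicates 1, 2 and 3. Diabetic values lay between those of control replicates 1 and 2 and that of control replicate 3. Control replicate 3 was the highest library in 20 of the 47 (42.6%), near its 48.7% over all shared regions, and control replicate 1 was the lowest in 21 (44.7%, beside 41.9%).

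No member passed the test. At a Benjamini-Hochberg adjusted p of 0.05 over the 7098 regions (limma), 0 of the 47 were higher and 0 lower in diabetic retinas, where 0.437% of all fitted regions were higher and 0.0845% lower. At an unadjusted p under 0.05, 2 members were higher and 1 lower, 6.38% of the 47 beside 8.54% of all. The share over all fitted regions rests on 37 calls, which became 14 with median centring, 11 with the replicate block and 8 without diabetic replicate 3. With centring, 4.26% of the members and 14.3% of all fitted regions had an unadjusted p under 0.05. The median difference was 0.09 on the log2 scale in the cluster and 0.07 over all fitted regions, with members from -0.44 to 0.58. The difference was above 0 in 31 members and below in 16. Centring each library on its median over all shared regions gave 25 above and 22 below. Without control replicate 3 the medians were 0.26 and 0.19, and 10 members had an unadjusted p under 0.05, again with none past adjustment. Without control replicate 1 the median of the members was -0.00, with 23 above 0 and 24 below, and without control replicate 2 it was 0.02, with 24 above and 23 below.

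Among members with a positive difference, the groups mostly overlapped. The region from 30802961 to 30803376 had the highest, with 5.66, 12.0 and 15.1 RPM in control replicates 1, 2 and 3 and 14.7, 17.1 and 13.5 RPM in the diabetic replicates. Control replicate 1 was the lowest library, and control replicate 3 lay inside the diabetic range. The difference was 0.58 ± 0.22 (log2, SE, n = 3 each; limma adjusted p = 0.348). It ranged from 0.16 without control replicate 1 to 0.87 without control replicate 3.

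In the region from 30529008 to 30529332 all diabetic values exceeded all control values. Controls had 6.47, 6.52 and 8.64 RPM and diabetic animals 9.97, 10.1 and 9.31, a difference of 0.45 ± 0.22 (log2, SE, n = 3 each; limma adjusted p = 0.553). Such separation, with all 3 diabetic libraries above all controls, occurred in 2 of the 47 members, where 7.72% of all fitted regions showed it. The other was the region from 30838007 to 30838485, with 5.89, 4.90 and 5.98 RPM in the controls and 6.42, 6.55 and 6.23 RPM in the diabetic replicates, a difference of 0.20 (log2, limma adjusted p = 0.885). The opposite separation occurred in 0 members, which allows up to 6.38%, where 3.85% of all fitted regions showed it.

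The 5 lowest p among members with a positive difference included the regions from 30802961 to 30803376 and from 30529008 to 30529332. Another 3 regions completed the 5. They ran from 30779735 to 30780638 (0.35 on the log2 scale, limma adjusted p = 0.705), from 30174002 to 30174732 (0.35, adjusted p = 0.733) and from 30827836 to 30828175 (0.32, adjusted p = 0.76). Leaving out 1 library moved each by over 1.5 times. The first ran from 0.20 without control replicate 1 to 0.54 without control replicate 3, and the second from 0.18 to 0.61 without the same libraries. The last fell to 0.12 without diabetic replicate 2. There, diabetic replicate 2 at 12.7 RPM stood above the other libraries, which lay between 7.01 and 8.66. In each of the 3 regions at least 1 control library lay inside or above the diabetic range.

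Among members with a negative difference, the region from 31338020 to 31338961 in the sixth block had the lowest p. Controls had 9.58, 8.69 and 15.9 RPM and diabetic replicates 6.65, 9.05 and 8.84 RPM, a difference of -0.44 ± 0.22 (log2, SE, n = 3 each; limma adjusted p = 0.575). It ran from -0.61 without control replicate 2 to -0.17 without control replicate 3. Control replicate 3 was the highest library and the remaining values overlapped. The region from 30909793 to 30910071 had 6.70, 11.4 and 20.7 RPM in the controls against 8.81, 9.61 and 10.3 RPM in the diabetic replicates, so the controls enclosed the diabetic range. Its difference of -0.28 turned to 0.13 without control replicate 3. The region from 30816581 to 30817137 (-0.23), the region from 29636982 to 29637274 (-0.21) and the last member (-0.20) followed, with limma adjusted p of 0.862, 0.879 and 0.885. The first of these was -0.06 without control replicate 1, -0.10 without diabetic replicate 1, -0.42 without control replicate 2 and -0.38 without diabetic replicate 2. The others were -0.08 and -0.07 without control replicate 3.

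**Figure D5:**
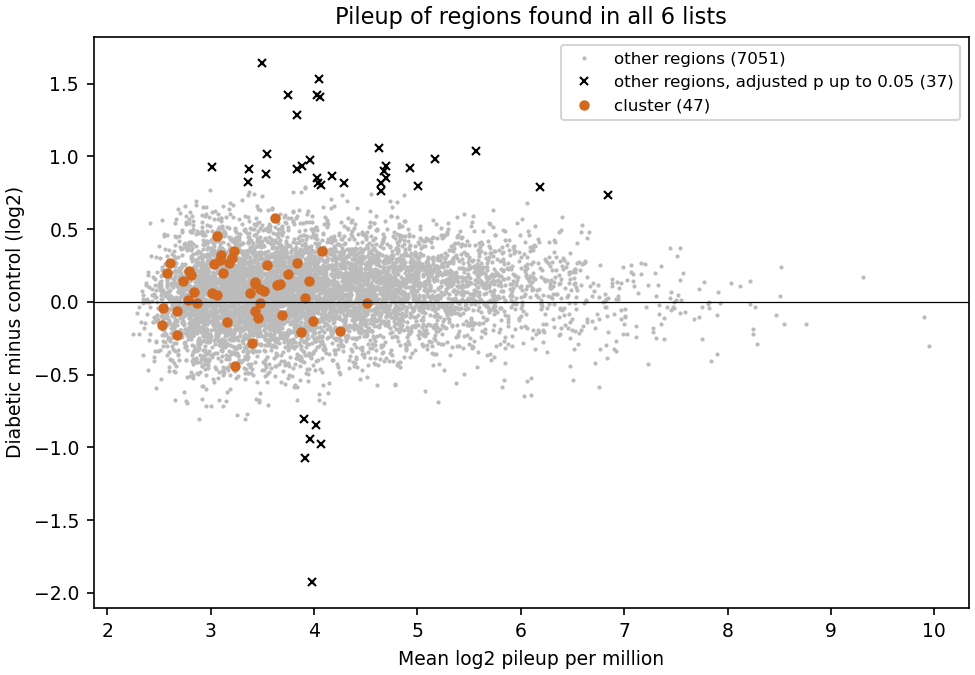
Difference in log2 pileup (RPM), diabetic minus control (y axis), against the mean log2 pileup (RPM) (x axis) for the 7098 regions with a peak in all 6 lists. Orange circles are the 47 members, grey dots the other regions and black crosses the 37 regions with an adjusted p up to 0.05. The members lie between -0.44 and 0.58, and no cross falls on one.

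Compared with the rest of its list, the cluster was weakly enriched in every animal. The median within-list percentile of fold enrichment was 25.0, 28.7 and 35.0 in control replicates 1, 2 and 3 and 34.7, 28.2 and 39.5 in diabetic replicates 1, 2 and 3, with means of 31.8 for the cluster and 50.1 for other regions. All 6 lists thus had the cluster below the rest, with a mean difference of -18.3 ± 5.43 percentile points (SD over 6 libraries). The exact two-sided sign-flip permutation p was 0.031, the smallest possible with 6 libraries, and 0.0521 after adjustment over 5 measures, which does not pass 0.05. The flips run over libraries of the same stretch, so this p and those below speak only to agreement between animals. Other stretches of the genome were not compared in this way. The pileup percentile differed by -22.6 ± 5.01 points (exact p = 0.031, adjusted p = 0.0521), again in 6 of 6 lists. Median fold enrichments of the cluster ran from 3.41 to 4.03 within the lists, and those of the rest from 4.77 to 5.17.

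Local background in the cluster almost never rose above the floor. In 5 lists 0 regions of the cluster had a background more than 1% above the floor, which allows shares of up to 3.19 to 5.26%, and in diabetic replicate 3 the share was 2.70%, from 2 regions in the first and sixth blocks. In the rest of the lists the share was 17.1 to 22.1%. The mean difference was -18.2 ± 2.15 points (SD over 6 libraries, lower in 6 of 6; exact sign-flip permutation p = 0.031, adjusted p = 0.0521). For nearly all members the fold enrichment therefore sets the pileup against a constant and does not correct for the local amount of input RNA.

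Differences from the rest of the lists in width and summit number did not pass the test. The median width of the cluster minus that of the rest was -15.1 ± 15.6 bases (SD over 6 libraries), below 0 in 5 of 6 lists (exact sign-flip permutation p = 0.0938, adjusted p = 0.117). In the densest Mb the difference was -8.58 bases (exact permutation p = 0.531). The share of regions with several summits was 0.194 ± 5.08 points higher, in 3 of 6 lists (exact permutation p = 0.875). It was 3.51 points higher in the densest Mb (exact permutation p = 0.156), and below 0 without any 1 of the diabetic replicates, down to -0.892 without diabetic replicate 3.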

How the data were processed

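m6A immunoprecipitation and input libraries were made from 3 control and 3 diabetic retinas. Each of the 6 immunoprecipitation samples has a peak list, and the input samples enter as its background. MACS2 2.1.0, BWA 0.7.12, fastp 0.19.11 and CASAVA are named in the submitters' processing notes. Peaks were called animal by animal with the matching input as control, per the file headers. The headers give a q limit of 0.05, reads extended by a fixed 118 to 125 bases without a fragment model, duplicates kept, a genome size of 61.5 Mb and scaling of the larger library down. BWA does not split reads over introns, and kept duplicates add to pileups. The genome build is not given in the sources used here, and an annotation or genome of that build was not used here, so regions carry no gene names or sequences.

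The deposited pileup is a coverage signal. The deposited −log10 p and q of each summit and the deposited fold enrichment, a ratio of pileup to local background after adding 1 to each, are the authors' own and served to rank or filter within a list. Lines with the same position are summits of 1 region, represented by the summit whose −log10 p is highest. Where a list had several regions in a union region, the one with the highest pileup was used.

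One value per library was compared with exact permutation tests. Pileup per 1000000 reads of the smaller library (RPM) was compared on the log2 scale with limma 3.58.1 (R 4.3.3, trend, no pseudocount), tested first on simulated data. Other steps used Python 3.11.15 with pandas 2.3.3 and SciPy 1.17.1. Pileup follows RNA abundance and methylation together. Intervals cover counting error only.

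Members, lists and tests were chosen with earlier results of these data known. Regions named were the 10 with the highest lowest percentile, the 5 widest, the 5 with most summits, all group-only regions, the 5 lowest limma p in each direction, and the 5 widest and 5 narrowest gaps. Others were chosen after their values were seen. Alternatives tried were stricter lists (−log10 q from 5 up, or fold from 3 up), equal list lengths, the densest Mb, a reciprocal overlap of 50%, median centring, no trend, a replicate block and leaving out each library.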

Additional observations from a re-analysis of the deposited data

Results flagged for a closer look

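The share of regions with several summits, taken in the cluster minus the rest of the same list, went in opposite directions in the groups. It was below 0 in all 3 control lists (-8.25, -2.36 and -0.681 percentage points) and above 0 in all 3 diabetic lists (3.50, 3.33 and 5.62). The means were -3.76 ± 3.97 and 4.15 ± 1.28 points (SD, n = 3 each). The difference of 7.92 points had an exact permutation p of 0.1, the smallest possible, and 0.5 after adjustment over 5 measures. In lists filtered by q or by fold, or cut to equal length, the cluster's share alone did not separate the groups completely.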

How the results depend on the processing

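No contrast between groups passed 0.05 under any alternative run, which 3 libraries against 3 cannot reach. Without 1 library at a time the differences stayed above 0, at 0.833 to 17.8 regions, 1.74 to 9.59 kb and 6.33 to 31.1 bases in median width. The difference per 1000 regions ran from -0.285 to 1.06, below 0 without control replicate 2 or diabetic replicate 2. Against the rest of the list, the share with several summits ran from -0.892 to 1.88 points with 1 library left out, was 3.51 in the densest Mb, and was -0.467, -0.434 and -0.892 without diabetic replicates 1, 2 and 3. Lower percentiles and lower background kept their sign in all 10 alternatives, and with 5 libraries their exact p cannot go below 0.0625. Regions in all lists numbered 33 to 54 around the 47 reported. Diabetic-only regions, under alternatives chosen after seeing the data, were 0 to 4 and control-only regions 0 or 1. Width against the rest of the list was -8.58 bases in the densest Mb. None of the 47 members passed limma under its 11 alternatives. The region from 30909793 to 30910071 ran from -0.68 to 0.13 and was above 0 without control replicate 3 only. With the replicate block the differences stay 8.33 regions, 0.369 per 1000, 4.63 kb, 18.8 bases and 7.86 points by construction, with exact p of 0.75, 0.75, 0.5, 0.5 and 0.25 (smallest possible 0.25), and limma again called 0 members. Same-numbered libraries had correlations of -0.219, -0.0357 and 0.0404 between their deviations from the group means, so the numbers were not taken as pairs. The block could not be applied to differences within a list, where each library is its own pair. The lowest fold enrichments of the members were 2.00 to 2.30 in the 6 lists, and the part of depth in them was not tested.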
